A study of Arabidopsis thaliana with 36 samples.

Results

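Fsc is the F1 hybrid of Arabidopsis thaliana in which the accession Sei-0 was the mother and Col-0 the father. Its time course after infection comprised 9 of the 36 mRNA-seq libraries of the series, 3 at each of 1, 2 and 3 days post infiltration (dpi), and was chosen by genotype and day, without use of any expression value. The other libraries came from the reciprocal hybrid Fcs (Col-0 as mother) and from the inbred parents Col-0 and Sei-0, sampled on the same days. In all 12 groups, leaves of 4-week-old plants kept at 8 h light and 16 h dark had been infiltrated with Pseudomonas syringae pv. tomato (Pst) DC3000, a virulent bacterium, at 100000 colony-forming units per ml, and leaves from different plants were pooled for each library. No uninfected group and no sample from before infiltration was analysed here.

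The values are FPKM, fragments per kilobase of exon, scaled to the number of mapped fragments, 1 value per group pooled over its 3 libraries. The tables carry neither the spread between libraries nor their depth, so no value below has an error or a test between days. A gene was counted as changed when it differed at least 2-fold on the scale log2(FPKM + 1), among the 17714 of 33557 genes with a mean of at least 1 FPKM over the 3 days. Each day was scaled to the same median first, since each had its own table. Day after infection, plant age and table cannot be told apart, and fewer cells of a type cannot be told apart from less RNA per cell. The label of leaf tissue was checked against marker genes. Of the leaf markers, RBCS1A, a Rubisco small subunit, stood at 7547, 8736 and 14135 FPKM at 1, 2 and 3 dpi. LHCB1.1, an antenna protein, stood at 949, 98.2 and 301 FPKM, and CA1, a carbonic anhydrase, is given below. All 4 flower markers and all 4 seed markers were below 1 FPKM on every day. Of 4 root markers, 3 were listed at 0 and the other reached 6.38 FPKM, at 1 dpi.

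Salicylic acid (SA) is the hormone that drives resistance to bacteria living in leaf tissue. In Arabidopsis most of it is made from isochorismate in the chloroplast, and a parallel branch turns lysine into N-hydroxypipecolic acid, which amplifies the same response. Jasmonate acts against SA in many tissues; one arm of its response serves wounding and a second, shared with ethylene, turns on defensin genes. Many of these genes, and those of photosynthesis, also follow the circadian clock, in which morning genes such as CCA1 and LHY repress evening genes through a motif called the evening element.

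Sequences upstream of 4 genes are shown because the results below contrast evening clock genes, which were higher after 1 dpi, with defence genes that were lower. Each is the 250 bases before the annotated start in the TAIR10.1 genome, with starts from its RefSeq annotation, written 5′ to 3′ on the strand of the gene. Capitals mark the evening element core AATATCT in GRP7 and LUX and the W-box core TTGACC or TTGACT, the motif bound by WRKY factors, in FRK1 and WRKY62, on either strand. GRP7 lies at chr2:9266558-9266807, minus strand, and LUX at chr3:17182792-17183041, plus strand. FRK1, a receptor kinase gene that flagellin switches on, lies at chr2:8329945-8330194 and WRKY62 at chr5:352096-352345, both on the minus strand.
GRP7: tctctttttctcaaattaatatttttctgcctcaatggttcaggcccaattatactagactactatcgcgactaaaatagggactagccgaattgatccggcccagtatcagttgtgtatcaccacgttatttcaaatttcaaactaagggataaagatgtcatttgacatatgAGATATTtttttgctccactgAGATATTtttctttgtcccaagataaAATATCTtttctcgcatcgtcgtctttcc
LUX: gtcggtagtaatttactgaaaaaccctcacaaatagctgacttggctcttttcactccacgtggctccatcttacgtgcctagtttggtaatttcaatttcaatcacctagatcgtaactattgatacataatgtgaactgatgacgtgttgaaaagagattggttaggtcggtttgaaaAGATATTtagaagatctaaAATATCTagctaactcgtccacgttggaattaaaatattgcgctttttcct
FRK1: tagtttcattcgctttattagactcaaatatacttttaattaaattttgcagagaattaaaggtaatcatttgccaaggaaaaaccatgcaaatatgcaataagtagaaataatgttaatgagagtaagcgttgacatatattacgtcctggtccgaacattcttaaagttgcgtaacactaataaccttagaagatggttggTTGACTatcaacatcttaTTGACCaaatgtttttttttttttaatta
WRKY62: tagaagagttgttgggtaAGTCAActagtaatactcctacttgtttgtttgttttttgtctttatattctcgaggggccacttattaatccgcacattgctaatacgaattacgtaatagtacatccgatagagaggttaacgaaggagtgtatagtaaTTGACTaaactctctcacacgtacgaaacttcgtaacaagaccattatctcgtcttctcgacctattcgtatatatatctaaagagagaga

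Over windows from 250 bases before to 50 after the start, the evening element core was present in 9 of 12 evening clock genes, against 11.6% of all 26686 promoters. Among morning clock genes it was present in 5 of 11. It was present in 17.4% of the 705 protein-coding genes that were at least 2-fold higher at 2 than at 1 dpi and in 10.4% of the 769 that were lower. The W-box core was present in 18 of 22 genes of pattern-triggered immunity, against 32.4% of all promoters. In other defence lists it was present in 6 of 24 SA-responsive genes, 5 of 14 that make and control SA and 1 of 4 of the pipecolic acid branch. Among genes changed at 3 against 1 dpi, it was present in 505 of 1801 higher and 691 of 1638 lower genes. The G-box CACGTG was present in 9.11% of those higher and 11.7% of those lower genes. Among the 17097 promoters of counted genes from which these were drawn, the share was 9.11% for the G-box, 33.1% for the W-box core and 12.2% for the evening element core. A match is a description of these letters, not a site of binding.

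Between 1 and 2 dpi, 772 genes (4.36%) were at least 2-fold higher and 808 (4.56%) at least 2-fold lower in Fsc, 8.92% in either direction. With control genes set equal between days, those counts were 1001 and 662. Between 2 and 3 dpi, 492 (2.78%) were higher and 775 (4.38%) lower, 7.15% together. Over the whole interval, 1918 genes (10.8%) were higher and 1690 (9.54%) lower at 3 than at 1 dpi, 20.4% together. Of patterns with both steps at least 1.5-fold, 589 genes (3.33%) increased at both steps, 581 (3.28%) decreased at both, 273 (1.54%) increased and then decreased, and 206 (1.16%) did the reverse. These shares are the background for each list below. The lists were chosen with earlier results of these data known, so a share above background is only a description.

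**Figure D1:**
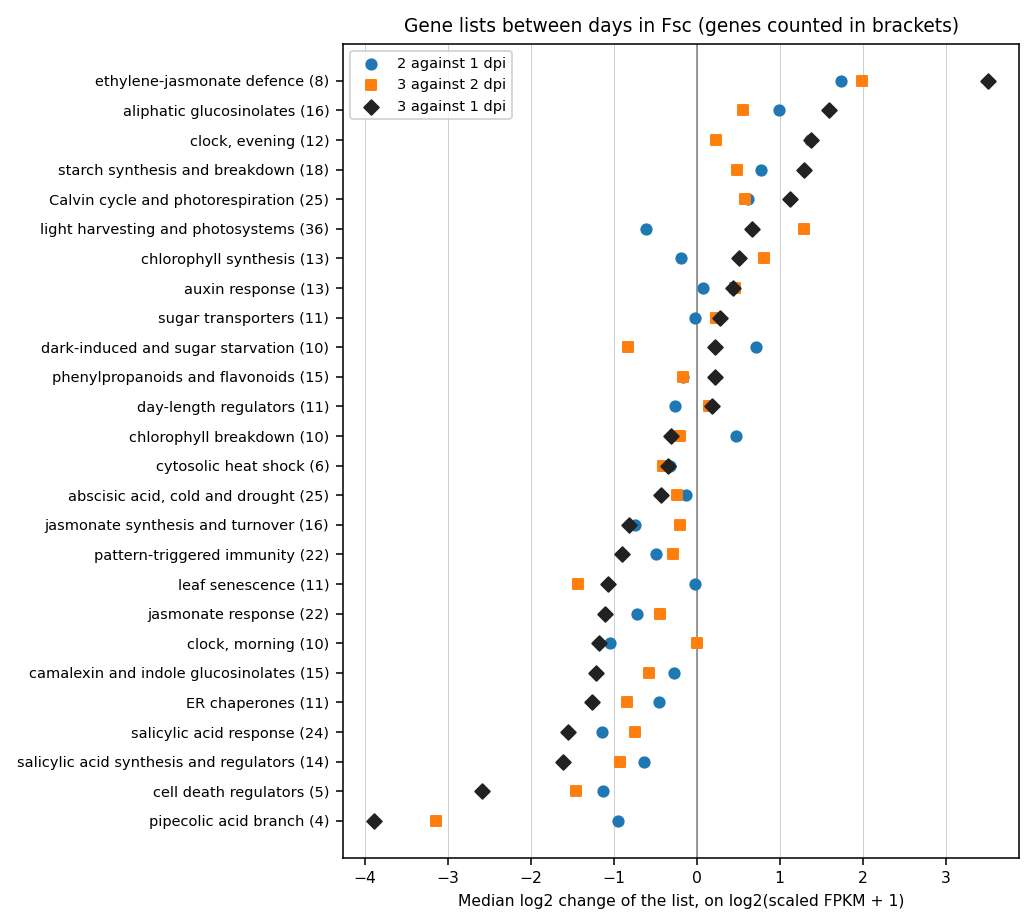
Median log2 change of each gene list in Fsc, from 2 against 1 dpi, 3 against 2 dpi and 3 against 1 dpi (circles, squares and diamonds), on log2(scaled FPKM + 1), with the number of genes counted in brackets and 1 pooled value per gene and day. Ethylene-jasmonate defence had the highest median at 3 against 1 dpi, 3.52, and the pipecolic acid branch the lowest, -3.89.

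The summed level of 14 genes that make and control SA was 2516, 1018 and 385 FPKM at 1, 2 and 3 dpi. Of these, 6 were at least 2-fold lower at 2 than at 1 dpi, 7 at 3 than at 2 dpi and 8 at 3 than at 1 dpi, and none was higher in any comparison, against a background of 4.56%, 4.38% and 9.54% lower. ICS1 (AT1G74710), the isochorismate synthase of the pathway, stood at 250.2, 98.1 and 22.8 FPKM at 1, 2 and 3 dpi, a log2 change of -3.40 over the interval. PBS3, which joins isochorismate to glutamate, stood at 550.5, 165 and 19.4 FPKM. EDS5, through which isochorismate leaves the chloroplast, stood at 407, 100.2 and 16.6 FPKM, although its locus overlaps another annotated gene and reads of the 2 cannot be told apart. All 3 therefore declined at both steps, with the larger step between 2 and 3 dpi.

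The regulators above this pathway followed the same order of days. PAD4, a lipase-like partner of EDS1, stood at 401, 108 and 47.0 FPKM. EDS1 itself stood at 88.4, 37.5 and 20.7 FPKM. The calmodulin-binding transcription factor CBP60g stood at 243, 160.4 and 40.8 FPKM and its relative SARD1 at 310.4, 149 and 67.0 FPKM. PAD4 and EDS1 showed the larger step between 1 and 2 dpi, whereas CBP60g showed it between 2 and 3 dpi, with log2 changes of -0.60 and -1.95. NDR1, which acts beside a different class of resistance proteins, changed by only -0.14 over the interval.

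The pipecolic acid branch had the lowest median of all lists, -3.89 at 3 against 1 dpi. All 4 members were at least 2-fold lower at 3 than at 2 dpi. ALD1, the aminotransferase that starts the branch from lysine, stood at 74.3, 41.5 and 3.69 FPKM. FMO1, which makes N-hydroxypipecolic acid, was nearly level at first and stood at 192, 163 and 13.1 FPKM. UGT76B1, the enzyme that glycosylates it, dropped at both steps, at 282, 34.6 and 3.15 FPKM. With SARD4 at 99.6, 47.3 and 17.2 FPKM, the summed level of the branch was 649, 286 and 37.1 FPKM.

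Of 24 SA-responsive genes, 14 were at least 2-fold lower at 2 than at 1 dpi and 14 at 3 than at 1 dpi, with a median change of -1.55 over the interval against 0.0540 for all genes counted. PR1, the usual marker of SA signalling, was highest at 2 dpi, at 3506, 6425 and 1779.9 FPKM. PR2, a glucanase, and PR5, a thaumatin-like protein, were lowest at 2 dpi. PR2 stood at 357, 160.4 and 218 FPKM and PR5 at 407, 235 and 314 FPKM. All 3 were lower at 3 than at 1 dpi, by less than 2-fold, with log2 changes of -0.98 for PR1, -0.71 for PR2 and -0.37 for PR5. By contrast NIMIN1, which binds the SA receptor NPR1, stood at 336, 72.5 and 20.4 FPKM, and the transcription factor WRKY62 at 253, 28.6 and 10.8 FPKM. BSMT1, which makes volatile methyl salicylate, stood at 196, 72.1 and 4.37 FPKM, and AIG1, induced by avirulent bacteria, at 1134, 387 and 65.6 FPKM. NPR1 and NPR4 changed by -0.64 and -0.26 over the interval.

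**Figure D2:**
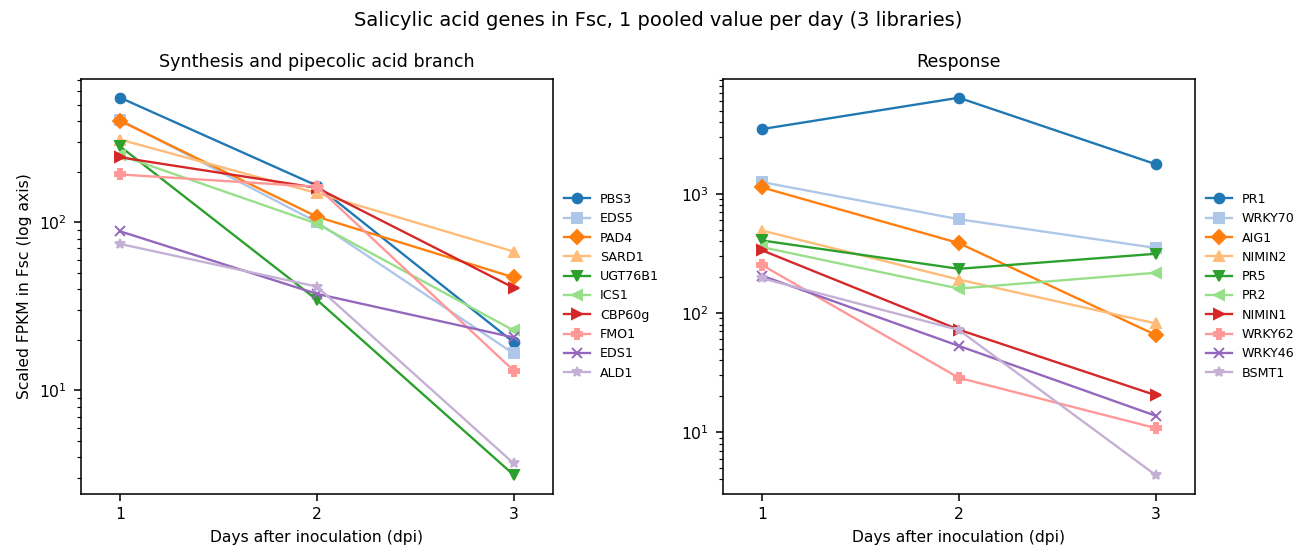
Scaled FPKM in Fsc (log axis) against day after inoculation for SA synthesis and pipecolic acid genes (left) and SA-responsive genes (right), each point 1 value pooled over 3 libraries. On the left every line falls at both steps. On the right PR1 peaks at 2 dpi, and PR2 and PR5 are lowest there.

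In the camalexin and indole glucosinolate list, 9 of 15 were at least 2-fold lower at 3 than at 1 dpi. CYP71A13, an early enzyme of the phytoalexin camalexin, stood at 301, 80.7 and 6.70 FPKM, and PAD3, its last enzyme, at 286, 182 and 41.1 FPKM. PEN2 and PEN3, which break down and export indole glucosinolates, did not follow, with log2 changes of 0.59 and 0.26. In pattern-triggered immunity 8 of 22 were lower, 1 was higher and 13 were neither, and only 5 were lower with control genes set equal between days. The higher one was the flagellin receptor FLS2, at 3.76, 3.69 and 8.94 FPKM. FRK1 stood at 53.4, 30.6 and 25.01 FPKM, and the MAP kinase MPK11 at 41.3, 21.6 and 8.07 FPKM. Among ER chaperones, which fold secreted proteins, 8 of 11 were lower, and BIP2 stood at 305, 195 and 86.7 FPKM. BAP1, an inhibitor of cell death, stood at 231, 67.5 and 11.4 FPKM and its relative BAP2 at 260.4, 41.2 and 2.48 FPKM.

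The 2 lists of jasmonate-responsive genes differed at 3 against 1 dpi. Their medians were -1.11 for the jasmonate response list and 3.52 for the arm shared with ethylene. The jasmonate response list holds JAZ repressors and MYC factors beside wound markers. Among its 22 counted genes, 14 were at least 2-fold lower at 3 than at 1 dpi and none was higher. In jasmonate synthesis 7 of 16 were lower. VSP2, a vegetative storage protein that marks the wound arm, stood at 581, 72.8 and 107 FPKM. TAT3, a tyrosine aminotransferase, stood at 2630.5, 709 and 119 FPKM. Of synthesis, the lipoxygenase LOX2 stood at 3339, 1775 and 1663 FPKM and the allene oxide cyclase AOC3 at 164, 47.3 and 17.64 FPKM. JAZ10, a repressor that jasmonate itself induces, stood at 284, 142 and 55.4 FPKM. The master regulator MYC2 was level, at 171, 174 and 179.8 FPKM.

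In the arm shared with ethylene, 6 of 8 counted genes were at least 2-fold higher at 3 than at 1 dpi and none was lower. The transcription factor ORA59 stood at 0.378, 4.05 and 18.23 FPKM. The defensin genes PDF1.2a, PDF1.2b and PDF1.2c were all higher on each later day. PDF1.2a stood at 25.9, 148 and 625 FPKM, PDF1.2b at 0.447, 6.25 and 62.7 FPKM and PDF1.2c at 4.26, 30.6 and 164 FPKM. These 3 are near-identical copies, so reads may have been split between them, and their separate levels are uncertain. They make up 3 of the 6 higher genes, so that count and the list median lean on 1 group of copies. The other 2 were the chitinase PR3, whose locus overlaps another gene, at 7.52, 24.8 and 4.04 FPKM and the transcription factor ERF1 at 2.94, 2.87 and 1.57 FPKM.

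Of 16 aliphatic glucosinolate genes, 8 were at least 2-fold higher at 2 than at 1 dpi and 13 at 3 than at 1 dpi, and none was lower. MYB28, the transcription factor of this pathway, stood at 16.6, 35.1 and 51.6 FPKM. CYP79F1, which acts early on elongated methionine, stood at 68.5, 171 and 288 FPKM, and MAM1, of chain elongation, at 73.7, 158 and 246 FPKM. The 3 members under the threshold were MYB29, MYB76 and IPMI-LSU1, with log2 changes of 0.71, 0.84 and 0.47.

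**Figure D3:**
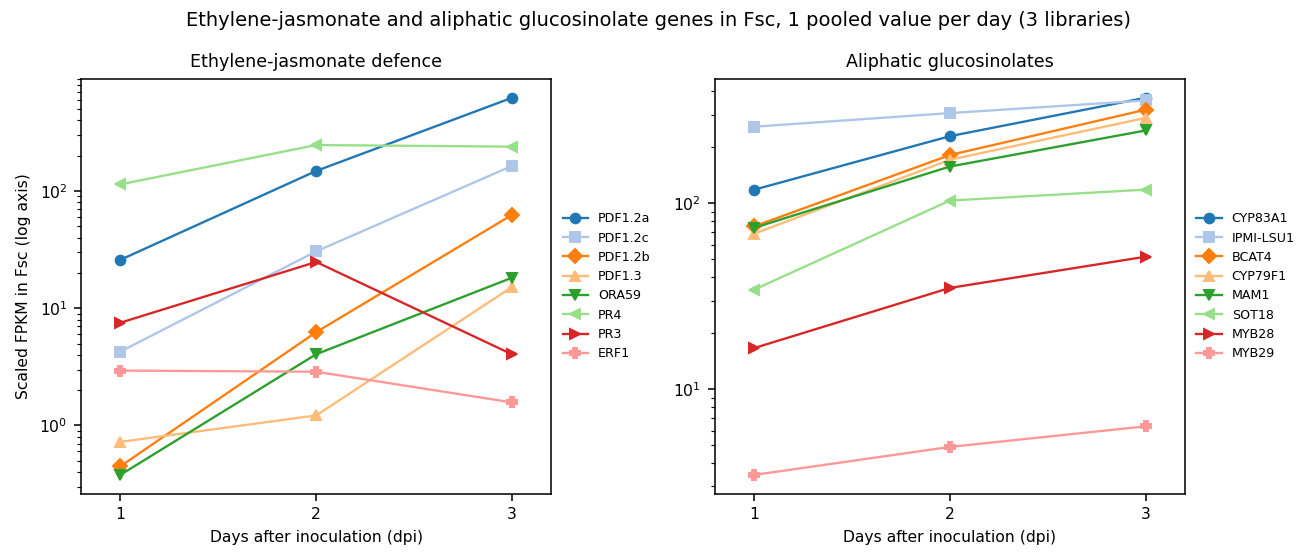
Scaled FPKM in Fsc (log axis) against day after inoculation for ethylene-jasmonate defence genes (left) and aliphatic glucosinolate genes (right), each point 1 value pooled over 3 libraries. PDF1.2a reaches 625 FPKM at 3 dpi, while PR3 peaks at 2 dpi and ERF1 is lowest at 3 dpi. On the right each of the 8 lines climbs at both steps.

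Clock genes differed between days, mainly between 1 and 2 dpi. Of 12 evening genes, 8 were at least 2-fold higher at 2 than at 1 dpi, 1 at 3 than at 2 dpi and 10 at 3 than at 1 dpi. ELF4, a subunit of the evening complex, stood at 66.8, 468 and 361 FPKM, and its partner LUX at 23.5, 82.2 and 88.8 FPKM. TOC1, which represses the morning genes, stood at 47.7, 110.4 and 112 FPKM. The RNA-binding protein GRP7, a clock output, stood at 2388, 8431 and 10321 FPKM. Of 10 morning genes counted, 5 were lower at 2 than at 1 dpi. CCA1 stood at 6.87, 1.18 and 1.12 FPKM and RVE8 at 13.2, 1.96 and 1.17 FPKM. RVE2, also listed as a morning gene, went the other way, at 2.93, 30.4 and 20.6 FPKM. The other groups shared these directions at 2 against 1 dpi. The evening list median was 1.36 in Fsc, 1.87 in Fcs, 1.06 in Col-0 and 2.17 in Sei-0. For the morning list it was -1.05, -0.81, -0.53 and -0.63 in the same order. The hour of harvest is not given in the sources used here, and the part of these clock genes in the other results was not tested.

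Of 36 light-harvesting and photosystem genes, 8 were at least 2-fold lower at 2 than at 1 dpi, against a background of 4.56%, 28 were neither and none was higher. By contrast 30 were higher at 3 than at 2 dpi, against a background of 2.78%. Between 1 and 3 dpi, 4 were higher, 1 was lower and 31 were neither, against a background of 10.8% higher and 9.54% lower. LHCB3, an antenna protein of photosystem II, stood at 1394, 433 and 1362 FPKM, although its locus overlaps another gene. LHCA1, of the photosystem I antenna, stood at 1062, 803 and 2092 FPKM. LHCB2.1 stood at 237, 29.5 and 131 FPKM and LHCB2.2 at 237, 39.7 and 187 FPKM, both lowest at 2 dpi. LHCB1.1 stood at 949, 98.2 and 301 FPKM and its close copy LHCB1.3 at 7213, 3728 and 12135 FPKM. Members of the LHCB1 and LHCB2 groups are near-identical, so these separate values are uncertain.

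Of 25 Calvin cycle and photorespiration genes counted, 14 were at least 2-fold higher at 3 than at 1 dpi and none was lower in any comparison. RBCS2B, a Rubisco small subunit with close copies, stood at 378, 1558 and 3008 FPKM. CA1, the main chloroplast carbonic anhydrase, stood at 146, 413 and 926 FPKM. Starch genes were alike, with 11 of 18 higher and 1 lower. The glucan water dikinase GWD1, which opens starch granules to breakdown, stood at 93.3, 246 and 377 FPKM, and the lower gene, the starch synthase GBSS1, at 14.7, 2.07 and 3.06 FPKM.

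**Figure D4:**
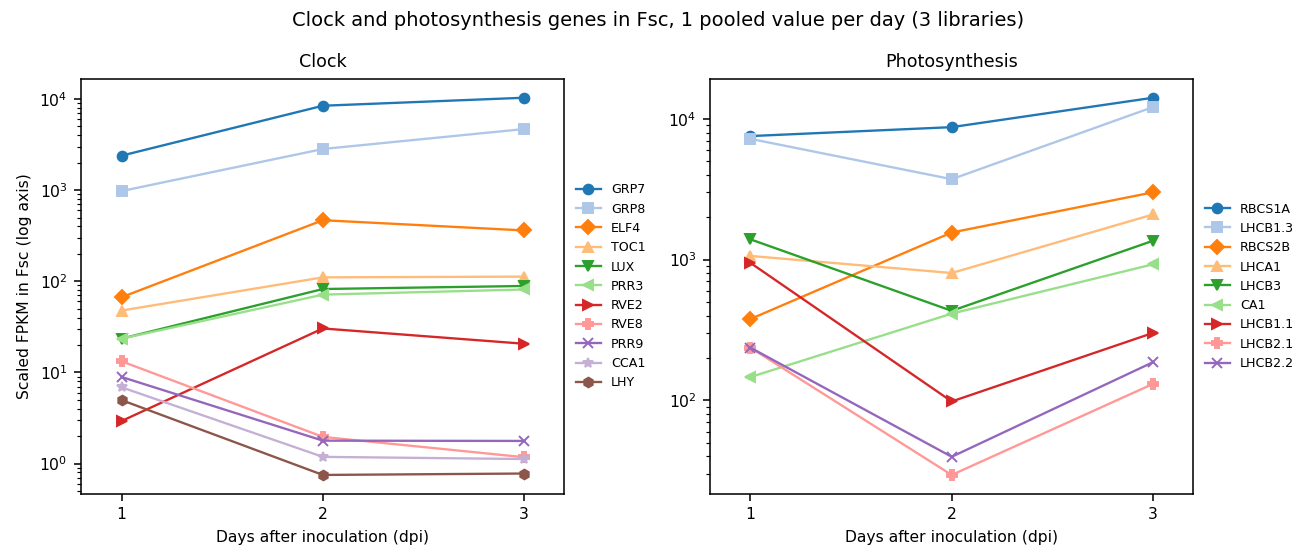
Scaled FPKM in Fsc (log axis) against day after inoculation for clock genes (left) and photosynthesis genes (right), each point 1 value pooled over 3 libraries. GRP7, ELF4 and RVE2 are higher at 2 than at 1 dpi and CCA1, LHY and RVE8 lower. On the right the LHC genes are lowest at 2 dpi, while RBCS2B and CA1 climb at both steps.

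Of 11 senescence genes counted, 2 were at least 2-fold higher at 2 than at 1 dpi and 6 lower at 3 than at 2 dpi. ORE1, a NAC factor that promotes senescence, peaked at 2 dpi, at 12.1, 36.3 and 12.5 FPKM, and WRKY75 stood at 94.1, 81.3 and 16.1 FPKM. Chlorophyll synthesis had 6 of 13 higher and 1 lower at 3 than at 1 dpi, with the light-dependent enzyme PORB at 168, 147 and 479.6 FPKM. Chlorophyll breakdown was divided, with 3 of 10 higher and 1 lower, and its reductase NYC1 stood at 105, 317 and 231 FPKM.

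The remaining lists were mixed. Abscisic acid, cold and drought genes had 4 of 25 higher and 8 lower at 3 than at 1 dpi, and the phosphatase HAI1 stood at 29.7, 30.9 and 2.71 FPKM. COR15B, a chloroplast protein of cold tolerance, was among the higher ones, at 370.3, 331 and 831 FPKM. Dark-induced genes had 3 of 10 higher and 2 lower, auxin response genes 3 of 13 higher and 2 lower, and phenylpropanoid and flavonoid genes none higher and 3 of 15 lower. Day-length regulators had 1 of 11 higher and 3 lower, heat shock genes 2 of 6 lower and sugar transporters 1 of 11 lower, the hexose transporter SWEET4 at 20.8, 2.35 and 0.807 FPKM. None of 9 control genes was called. ACT2, an actin, stood at 413, 399 and 426 FPKM.

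By size of change, several precursors of microRNAs headed the lists because they were listed at 0 on at least 1 day. MIR156d was listed at 0 at 1 dpi, at 191 FPKM at 2 dpi and at 0 at 3 dpi, and MIR172b was listed at 0, 125 and 0 FPKM. Of 42 microRNA genes counted, 22 were listed at 0 on a day, against 63 of 17098 protein-coding genes, and no fold is given for them. Protein-coding genes were therefore ranked alone, a choice made after the values had been seen.

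Among protein-coding genes that had a symbol and reached 20 FPKM on at least 1 day, the largest increases at 2 against 1 dpi were in OSM34, DOX1 and KTI1. OSM34, an osmotin-like protein, stood at 1.86, 87.5 and 26.4 FPKM, the alpha-dioxygenase DOX1 at 2.75, 62.3 and 6.57 FPKM and the Kunitz trypsin inhibitor KTI1 at 26.8, 447 and 68.7 FPKM. All 3 were much lower again at 3 dpi. Under the same limits the largest decrease was in PGL5, a 6-phosphogluconolactonase, at 295, 12.7 and 12.5 FPKM, and the beta-glucosidase BGLU18 stood at 1012, 96.3 and 140.4 FPKM. Over the whole interval, again under these limits, the largest increases after the PDF1.2 genes were in GASA6, a gibberellin-regulated peptide, at 2.37, 14.6 and 71.9 FPKM and EXPA8, an expansin that loosens cell walls, at 2.23, 12.4 and 47.1 FPKM. The largest decreases were in ILL5, related to enzymes that free auxin from amino acids, at 191, 12.005 and 1.37 FPKM and in BAP2 and UGT76B1, given above. The lipid transfer protein genes LTP3 and LTP4 are close relatives that may share reads. LTP3 stood at 234, 24.0 and 4.35 FPKM and LTP4 at 156, 52.0 and 3.05 FPKM.

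Genes of each pattern were ranked by their smaller step, among those with a symbol that reached 20 FPKM on at least 1 day. PDF1.2c, PDF1.2b, GASA6 and PDF1.2a led those that increased at both steps. UGT76B1, BAP2, ILL5 and MSRB9, a methionine sulfoxide reductase at 478, 81.1 and 14.5 FPKM, led those that decreased at both. LHCB2.2, LHCB2.1, LHCB3 and LHCB1.1 led those that were lowest at 2 dpi. Among protein-coding genes highest at 2 dpi, DOX1 and KTI1 were followed by BRU6, an enzyme that conjugates auxin to amino acids, at 1.60, 20.9 and 3.00 FPKM, and the cytochrome P450 gene CYP91A2, which overlaps another gene, at 4.96, 27.9 and 3.88 FPKM. GH3.3, an auxin-conjugating enzyme of the same family as BRU6, stood at 3.96, 31.3 and 6.003 FPKM.

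The course of Fsc was most like that of Fcs. Across 17714 genes the log2 changes at 3 against 1 dpi had a Pearson r of 0.861 with Fcs, 0.556 with Sei-0 and 0.077 with Col-0. These are descriptions across genes, which are not independent, and all 4 groups of a day come from 1 table. Counts at 3 against 1 dpi were 1918 higher and 1690 lower in Fsc, 2173 and 1936 in Fcs, 1180 and 923 in Col-0, then 1323 and 1298 in Sei-0.

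The SA and pipecolic acid genes show where the courses parted. ICS1 stood at 250.2, 98.1 and 22.8 FPKM in Fsc at 1, 2 and 3 dpi, 296, 137 and 34.6 in Fcs, 42.2, 84.9 and 52.8 in Col-0 and 173, 141 and 56.1 in Sei-0. Fsc was thus above both parents at 1 dpi and below them at 3 dpi. ALD1 stood at 74.3, 41.5 and 3.69 FPKM in Fsc, 124, 95.4 and 10.6 in Fcs, 5.46, 41.6 and 31.6 in Col-0 and 54.0, 87.5 and 51.1 in Sei-0. PR1 stood at 3506, 6425 and 1779.9 FPKM in Fsc, 3832, 8320.1 and 1565 in Fcs, 147, 2655 and 2384 in Col-0 and 727, 3495 and 687 in Sei-0. In all 4 groups PR1 was highest at 2 dpi.

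The ethylene-jasmonate genes went different ways in hybrid and paternal line. PDF1.2a stood at 25.9, 148 and 625 FPKM in Fsc, 34.1, 107 and 449.6 in Fcs, 57.7, 3.14 and 2.48 in Col-0 and 67.9, 96.9 and 167 in Sei-0. In the maternal line Sei-0 the copies differed. At 3 against 1 dpi PDF1.2a changed by 1.28 there, but PDF1.2b by -1.33 and PDF1.2c by -0.98. CA1 also differed in direction between the hybrids and Col-0, at 146, 413 and 926 FPKM in Fsc and 72.1, 179 and 454 in Fcs. It stood at 792, 121 and 316 FPKM in Col-0 and 270.5, 109 and 159 in Sei-0. Over 36 light-harvesting and photosystem genes, the median change at 3 against 1 dpi was 0.66 in Fsc and -0.85 in Col-0, but members varied. LHCB1.1 changed by -1.65 in Fsc and -1.34 in Col-0. At 3 dpi the antenna gene LHCB1.4 stood at 1055 FPKM in Fsc and 447 in Col-0, whereas LHCB3 stood at 1362 and 2618. In senescence, ORE1 stood at 12.1, 36.3 and 12.5 FPKM in Fsc, 31.3, 87.2 and 32.7 in Fcs, 8.00, 52.5 and 84.1 in Col-0 and 8.34, 65.7 and 98.5 in Sei-0. At 3 dpi both hybrids were therefore above both parents in PDF1.2a and CA1 and below them in ORE1.

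Fsc and Fcs were not identical. The dark-induced list had a median of 0.22 in Fsc and -2.13 in Fcs at 3 against 1 dpi, beside 1.06 in Col-0 and 0.30 in Sei-0. ASN1, an asparagine synthetase induced by darkness, stood at 34.3, 23.8 and 3.07 FPKM in Fsc and 379, 32.7 and 11.7 in Fcs. It was thus lower at 3 than at 1 dpi in both hybrids, unlike the Fsc median, and the gap was widest at 1 dpi. No test of this difference was possible.

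**Figure D5:**
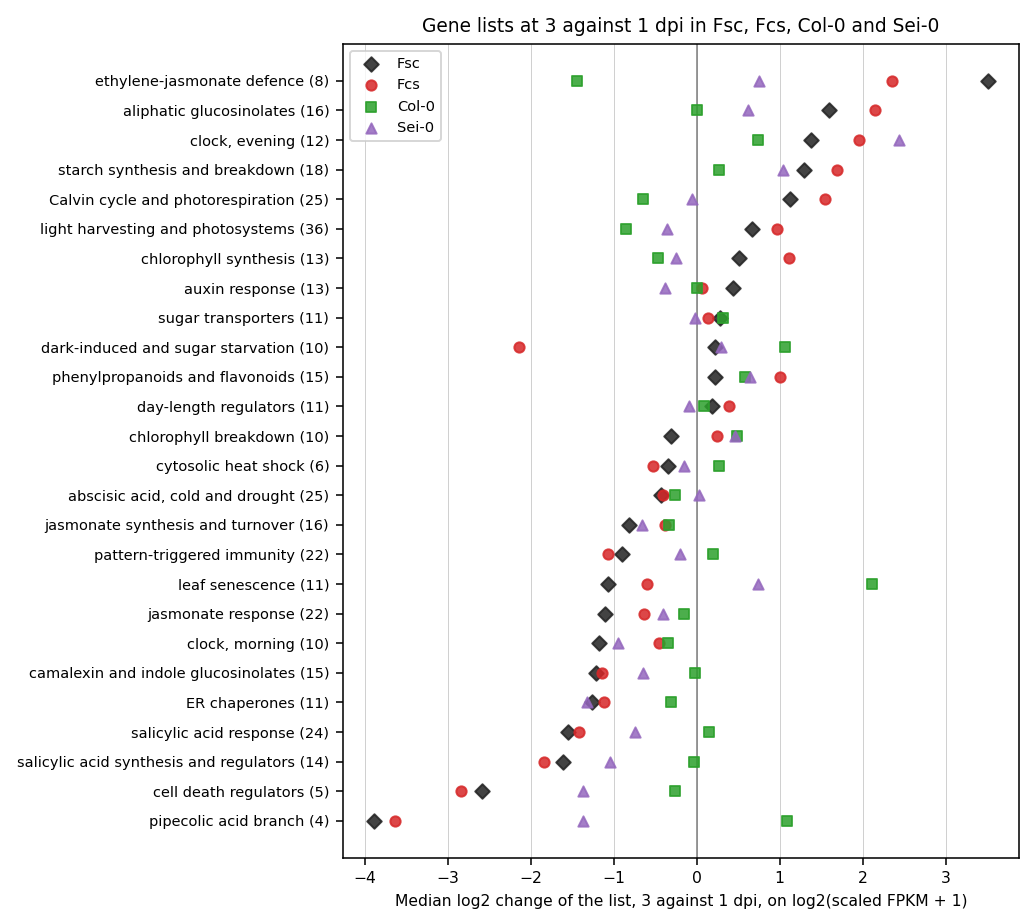
Median log2 change of each gene list at 3 against 1 dpi in Fsc, Fcs, Col-0 and Sei-0 (diamonds, circles, squares and triangles), on log2(scaled FPKM + 1), with the number of genes counted in Fsc in brackets and 1 pooled value per gene and group. For ethylene-jasmonate defence the medians are 3.52 in Fsc, 2.35 in Fcs, -1.45 in Col-0 and 0.75 in Sei-0. For leaf senescence they are -1.07 in Fsc, -0.60 in Fcs, 2.12 in Col-0 and 0.74 in Sei-0.

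In Fsc, 98 genes (0.553%) lay at least 1 log2 unit above the range of the other 3 groups in their change at 3 against 1 dpi, and 107 (0.604%) below it. The same count was 57 and 97 in Fcs, 772 and 668 in Col-0, then 84 and 76 in Sei-0. In Fsc, 68 of those above and 99 of those below were protein-coding. Farthest above, among genes with a symbol and 20 FPKM on 1 day, were the microRNA genes MIR167b and MIR844. Both were listed at 0 in Fsc at 1 and 2 dpi. RVE2 stood at 2.93, 30.4 and 20.6 FPKM in Fsc, 1.89, 2.55 and 3.29 in Fcs, 1.91, 0.719 and 1.26 in Col-0 and 3.34, 1.73 and 0.834 in Sei-0. JMJD5, a jumonji protein linked to the clock, stood at 3.21, 38.9 and 27.9 FPKM in Fsc, 0.756, 3.65 and 2.47 in Fcs, 0.776, 0.385 and 0.287 in Col-0 and 1.77, 0.931 and 0.726 in Sei-0. Both were thus highest in Fsc at 2 dpi. The other protein-coding genes among the 5 farthest above were PDF1.2c, PDF1.2b and DGR2, whose locus overlaps another gene. ILL5, given above, was farthest below, 3.44 log2 units beyond the range, and BSMT1 was 2.54 beyond it. Below the range lay TPS02, a terpene synthase, at 76.2, 32.1 and 5.18 FPKM in Fsc, 50.2, 64.3 and 41.5 in Fcs, 14.6, 44.9 and 48.1 in Col-0 and 163, 202 and 324 in Sei-0. TPS03, its close relative with which reads may be shared, and the nitrate reductase NIA1 lay below the range as well, with log2 changes of -2.24 and -1.50 in Fsc.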

How the data were processed

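Leaves of 4 genotypes were profiled by mRNA-seq at 1, 2 and 3 dpi, with 3 libraries for each of 12 groups. Per the study's methods, the authors removed adapters and low-quality reads, aligned the rest to TAIR10 by TopHat (Bowtie is named in the labels), and ran Cufflinks, Cuffmerge and Cuffdiff; tool versions were not given in the sources used here. The deposited FPKM values are 1 pooled value per group in 1 table per day, each normalized by the authors separately. Their columns of fold change, test statistic, p-value and q-value compare genotypes within a day and were not used. The tables carry no depth per library. All 279 organelle genes have a value of 0 throughout.

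FPKM of each day were scaled to the same median of the 16612 genes at 1 FPKM or more on all 3 days (factors 1.0200, 0.9596 and 1.0217). Changes were differences of log2(scaled FPKM + 1), with a pseudocount of 1, over 17714 genes with a mean of at least 1 FPKM. No test was run, since the tables hold no replicate values. Symbols came from TAIR10.1 RefSeq annotation, which matched 32810 of 33557 identifiers, and promoter coordinates are of that build. Of 32810 genes, 50.2% shared a start or end with the deposited loci. Genes were named by rule: 6 SA genes, and list members of highest level or largest change. Further rules took the 8 largest changes in each direction per comparison, 4 genes per pattern and the 5 farthest from the other groups on each side. Genes of these further rules had a symbol and 20 FPKM or more on 1 day in Fsc. The 4 promoters shown were chosen after their matches were seen. The members and lists were chosen with earlier results of these data known. The calculation was tested on simulated days. Python 3.11.15, NumPy 2.4.6 and pandas 2.3.3 were used.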

Additional observations from a re-analysis of the deposited data

Results flagged for a closer look

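In 4 lists of at least 5 counted genes the Fsc median at 3 against 1 dpi had the opposite sign to that of another group, each at least 0.5 log2 units from 0. Ethylene-jasmonate defence had 3.52 in Fsc and -1.45 in Col-0 over 8 genes, which include the near-identical PDF1.2 copies. Light harvesting and photosystems had 0.66 in Fsc and -0.85 in Col-0 over 36 genes. In Fsc only 4 of these 36 were at least 2-fold higher and 1 lower, against a background of 10.8% and 9.54%. Calvin cycle and photorespiration had 1.13 in Fsc and -0.65 in Col-0 over 25 genes. Leaf senescence had -1.07 in Fsc over 11 genes, whereas Col-0 had 2.12 and Sei-0 had 0.74. The pipecolic acid branch, with only 4 genes, had -3.89 in Fsc and 1.08 in Col-0. The differences were not tested, since each group has 1 pooled value per day.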

How the results depend on the processing

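Under the 4 other scalings between days, each count of changed genes and each pattern count stayed within 1.5 times its value. At 3 against 1 dpi, 1753 to 2167 genes were then higher and 1515 to 1842 lower, and the median of all genes then reached at most 0.0964 at 2 against 1 dpi and 0.129 at 3 against 1 dpi. None of the list medians or named genes past 2-fold changed sign under any alternative, but sizes moved. With a pseudocount of 5, 66 of 165 named-gene changes, 3 of 84 list medians and 32 of 168 counts of list members moved by over 1.5 times, and with a pseudocount of 0.1 these were 25, 1 and 12. With control genes set equal, 8 of the 168 counts moved. The ethylene-jasmonate median at 3 against 1 dpi was 1.96 with a pseudocount of 5 and 4.40 with 0.1, and that of morning clock genes was -0.31 at a mean of at least 5 FPKM. A pseudocount of 5 gave 404 higher and 463 lower genes at 2 against 1 dpi, 245 and 422 at 3 against 2 dpi, and 1118 and 1094 at 3 against 1 dpi, with patterns of 312 increased at both steps, 363 decreased at both, 167 increased then decreased and 105 the reverse, and 42 genes above and 51 below the other groups. A pseudocount of 0.1 gave 362 genes decreased then increased, and 148 above and 192 below the other groups. A mean of at least 5 FPKM left 173 genes increased then decreased. A 1.5-fold threshold gave 2242 and 2036, 1855 and 1648, and 4001 and 3288 genes higher and lower, in the same order of comparisons. A 4-fold threshold gave 96 and 152, 67 and 177, and 293 and 488. Counting any step gave 5799, 4918, 2929 and 4026 genes in the 4 patterns, and steps of at least 2-fold gave 57, 208, 131 and 61. Protein-coding genes alone, an alternative chosen after seeing the data, kept each count within 1.5 times. No paired analysis was possible because each group has 1 pooled value, and for the same reason no library could be left out. Precision of single genes cannot be stated, since the deposited values carry neither depth nor spread between libraries. The paper's supplement does list aligned amounts per library and correlations between replicates, which were not used here. The lowest of those correlations was between libraries of Sei-0 at 3 dpi, so the Sei-0 values of that day need more caution.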

Other observations

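Gene families read from annotation symbols after the data were seen gave further values in Fsc at 3 against 1 dpi. The background over all genes counted was 10.8% higher and 9.54% lower. Of 9 alpha expansin genes counted, which loosen cell walls in growth, 5 were at least 2-fold higher and 2 lower. EXPA1 stood at 15.1, 40.2 and 134 FPKM at 1, 2 and 3 dpi and EXPA11 at 1.08, 6.69 and 17.3 FPKM, whereas EXPA10 stood at 32.4, 22.8 and 4.38 FPKM. The family median was 1.08 in Fsc, 0.48 in Fcs, -0.72 in Col-0 and -1.08 in Sei-0.

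Of 54 WRKY transcription factor genes counted, 19 were lower and 4 higher. WRKY46 stood at 205.5, 53.0 and 13.7 FPKM, and WRKY26, among the 4, at 19.2, 43.9 and 61.2 FPKM. Of 34 cysteine-rich receptor-like kinase genes, 9 were lower, none was higher and 25 were neither, with a median of -0.11. CRK13 stood at 217, 39.6 and 16.3 FPKM. Of 7 calmodulin-like genes counted, 4 were lower and none higher, and CML37 stood at 46.1, 16.2 and 4.55 FPKM.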
